A study of Mus musculus with 12 samples.

Results

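The genes described here encode signals with which the fetal liver niche is known to act on blood-forming cells, and they were taken by name: the rows of the deposited table whose gene symbol was Kitl, Thpo, Epo, Csf1, Flt3l, Angptl2, Jag1, Vcam1 or Spp1. All 9 had a row, among 30743 rows in all. The table was made from polyA-selected RNA of whole livers of C57BL/6J male fetuses at 15 ± 0.5 dpc (days post coitum), 6 from control dams and 6 from dams on a high-fat diet (HFD). Dams ate 13.5 kcal% fat (control) or 60 kcal% fat (HFD) for 12 to 14 weeks, and HFD in this study is a model of diet-induced maternal obesity. The value used for each gene was the authors' average over all 12 livers, in log2 CPM (read counts scaled to the size of each library). It mixes both diets and carries no spread between livers, so no SD can be given and diets were not compared here. The labels do not say which fetuses shared a dam. Because whole livers were sequenced, fewer cells of a type and less RNA per cell cannot be told apart.

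In the fetus the liver is the main site of blood formation, and stem and progenitor cells there are held and expanded by hepatoblasts, stellate cells, endothelium and macrophages. The signals fall into soluble or membrane-bound cytokines that bind receptor tyrosine kinases or cytokine receptors, ligands of the Notch pathway that act between touching cells, and adhesion or matrix proteins that bind integrins. Kitl (stem cell factor), Thpo (thrombopoietin), Epo (erythropoietin), Csf1 (macrophage colony-stimulating factor) and Flt3l are the cytokines. Angptl2 is a secreted angiopoietin-like protein, Jag1 a Notch ligand, Vcam1 an adhesion molecule and Spp1 (osteopontin) a matrix phosphoprotein.

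The labelled tissue was checked against its markers. Alb, at 63314 CPM, and Afp, at 54525 CPM, the plasma proteins made by hepatoblasts, held the highest levels of the marker lists, and the erythroid genes Hba-a2 (49707 CPM) and Klf1 (692 CPM) were also high. Cells that could make the niche signals were represented by Col3a1 (712 CPM) and Des (23.7 CPM) for mesenchymal cells, by Lyve1 (151 CPM) and Cdh5 (144 CPM) for endothelium, and by C1qa (82.4 CPM) and Timd4 (42.1 CPM) for macrophages. Outside the erythroid list, each of these lists also held markers without a single read: Hnf4a for hepatoblasts, Pdgfrb for mesenchymal cells, Pecam1 and Tek for endothelium, and Adgre1 (F4/80, listed under its older symbol Emr1) for macrophages. The macrophage marker Cd68 had 9 reads, and the endothelial marker Stab2 stood at 2.09 CPM. Of the erythroid list, Alas2 had 87 reads and lay below 1 CPM, and Hba-a1 and Hbb-bt matched no row. The acinar pancreas genes Cela1 (13.6 CPM) and Cpa1 (7.89 CPM) were detected as well, and their part in the levels below was not tested.

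The average level could be turned back into a number of reads. As deposited, 11091 rows shared the lowest value, -2.71 log2 CPM, and the rows just above it lay on steps that were evenly spaced on the linear scale. The first step held 1267 rows and was taken as 1 read among the 12 livers, which put the count added to every library before the logarithm at 2.00 and the mean normalized library at 13136919 reads. Of the 4222 rows estimated at 1 to 10 reads, 99.8% lay within 0.1 of a whole number. A gene's read total over the 12 livers, and its CPM with the added count taken off, are given on this basis throughout. Values in log2 CPM and the call of a row as above 1 CPM used the deposited value, with the added count left in. The 95% intervals of read totals and CPM are exact Poisson intervals of the read total and cover counting error only.

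**Figure D1:**
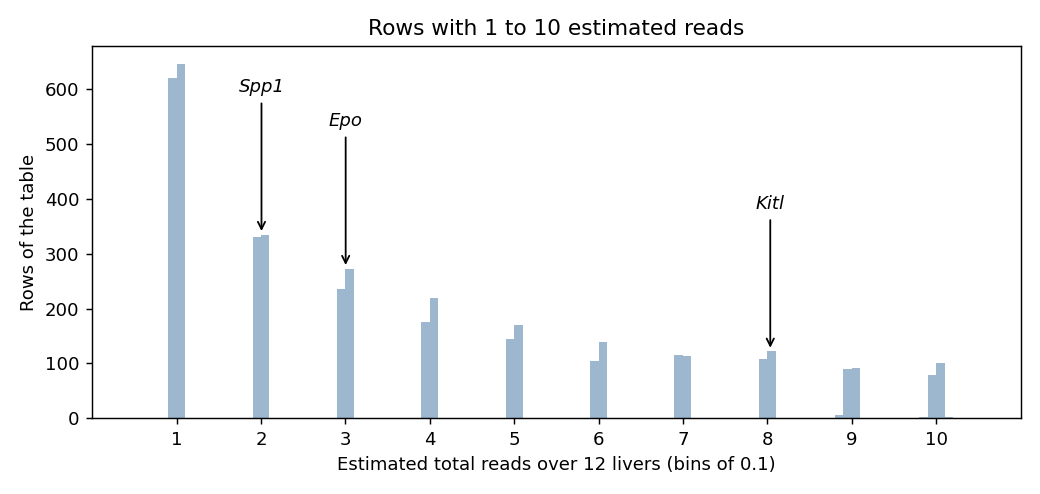
Number of rows of the table (vertical axis) by the estimated total of reads over 12 livers (horizontal axis, in bins of 0.1 reads), for totals of 1 to 10. The rows gather at whole numbers, and arrows mark Spp1 at 2, Epo at 3 and Kitl at 8 reads.

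Levels of the 9 genes spanned from 2 reads for Spp1 to 45715 for Vcam1. Vcam1 alone held 93.2% of all reads of the 9, Jag1 4.23% and Angptl2 1.88%. Only Vcam1, Jag1, Angptl2 and Flt3l lay above 1 CPM, that is 4 of 9 genes, against 33.1% of all rows of the table. The other 5, all of them cytokines except Spp1, had fewer than 100 reads over the 12 livers together. So did 19915 of the 30743 rows of the table. The median of the 9 was -1.21 log2 CPM, which is the value of Thpo.

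Kitl, the ligand of the receptor Kit on stem and progenitor cells, lies on chromosome 10 of GRCm38 (the build also known as mm10) from 100015615 to 100100416, on the plus strand. Its authors' average was -2.30 log2 CPM, which came to 8 reads over the 12 livers (95% interval 3.45 to 15.8), or fewer than 1 read per library. As a level this was 0.051 CPM (0.0219 to 0.10). Among the 19652 rows with reads it lay at percentile 19.4, so that 15842 rows of the table were higher. The same total of 8 reads was found for 230 rows.

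Thpo, made by hepatocytes and known for driving megakaryocyte formation and stem cell maintenance, lies on chromosome 16 from 20724454 to 20734511 on the minus strand. It was listed at -1.21 log2 CPM, which came to 44 reads (32.0 to 59.1), or 3.68 reads per library. Its level was 0.28 CPM and its percentile among rows with reads 35.7.

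Epo, the hormone of red cell formation, which the fetal liver makes before the kidney takes over, lies on chromosome 5 from 137483020 to 137485816 on the minus strand. It was listed at -2.54 log2 CPM, which came to 3 reads over the 12 livers (0.619 to 8.77). The level of 0.0191 CPM had an upper bound of 0.0556 CPM. At 0.25 reads per library, most of the 12 libraries cannot have had a read counted in the row of Epo.

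Csf1, the growth factor of macrophages, lies on chromosome 3 from 107741048 to 107760469 on the minus strand. It had an average of -1.33 log2 CPM, or 39 reads (27.7 to 53.3), and its interval in CPM (0.176 to 0.338) overlapped that of Thpo (0.203 to 0.375). Flt3l, which supports dendritic cells and lymphoid progenitors, lies on chromosome 7 from 45131183 to 45136490 on the minus strand. It was the highest of the cytokines at 0.72 log2 CPM, or 235 reads (206 to 267), which was 1.49 CPM, and lay at percentile 54.3 of the rows with reads.

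Angptl2 lies on chromosome 2 from 33215951 to 33247725 on the plus strand. It was listed at 2.58 log2 CPM, or 921 reads (862 to 982), at a level of 5.84 CPM and percentile 67.3. Jag1, on the same chromosome from 137081451 to 137116520 on the minus strand, was listed at 3.74 log2 CPM. This came to 2077 reads (1989 to 2168), a level of 13.2 CPM at percentile 74.3. Among rows above 1 CPM alone, Angptl2 lay at percentile 36.8 and Jag1 at percentile 50.3, against 95.5 for Vcam1.

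Vcam1, through which stromal and endothelial cells and macrophages hold blood cells that carry integrin alpha 4, lies on chromosome 3 from 116110020 to 116129688 on the minus strand. It was the most abundant of the 9 at 8.18 log2 CPM, or 45715 reads (45297 to 46136). The level of 290.0 CPM placed it at percentile 97.6, and 461 rows of the table were higher. Spp1, the matrix protein at the other end, lies on chromosome 5 from 104435111 to 104441053 on the plus strand. It was listed at -2.60 log2 CPM, which came to 2 reads over the 12 livers (0.242 to 7.22). Its level of 0.0127 CPM was the lowest of the 9, at percentile 8.74, and 665 rows had the same total.

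**Figure D2:**
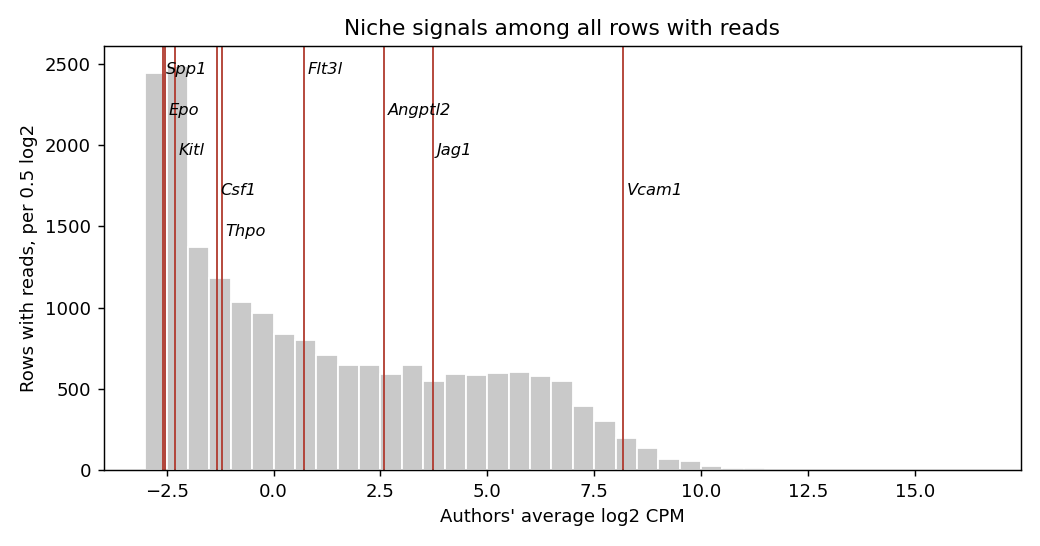
Rows of the table that had reads, counted in steps of 0.5 of the authors' average log2 CPM, with a vertical line at the value of each niche signal. Spp1, Epo and Kitl stand in the lowest steps and Vcam1 at 8.18, near the upper end.

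Levels of different genes were compared per kilobase of the longest coding transcript, which ranged from 855 bases for Epo to 5648 bases for Kitl. On this scale Vcam1 reached 83.6 CPM per kb, 35.6 times Jag1 (2.35 CPM per kb). Jag1 exceeded Angptl2 (1.75) by 1.34 times and Angptl2 exceeded Flt3l (1.10) by 1.59 times. A larger drop of 9.47 times separated Flt3l from Thpo (0.116), which in turn was 1.96 times Csf1 (0.059). Counting intervals of these neighbours did not overlap on this scale. Epo (0.0223), Kitl (0.00902) and Spp1 (0.00845) followed, and each of them overlapped in its counting interval with the gene next above it, so their order was not determined at this depth. Part of this order depended on the length used. Measured per kilobase of coding sequence, Angptl2 (3.95) stood above Jag1 (3.61) and Kitl (0.0622) above Epo (0.0331), and both pairs also changed places with the median length of the coding transcripts. Thpo was 1.63 times Csf1 with the coding length and 1.05 times with the median length, and their counting intervals then overlapped. The steps from Vcam1 to the next gene, from Angptl2 to Flt3l and from Flt3l to Thpo had intervals that did not overlap with any of the 3 lengths. Whether any neighbours differ beyond the spread between livers is not known from an average.

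**Figure D3:**
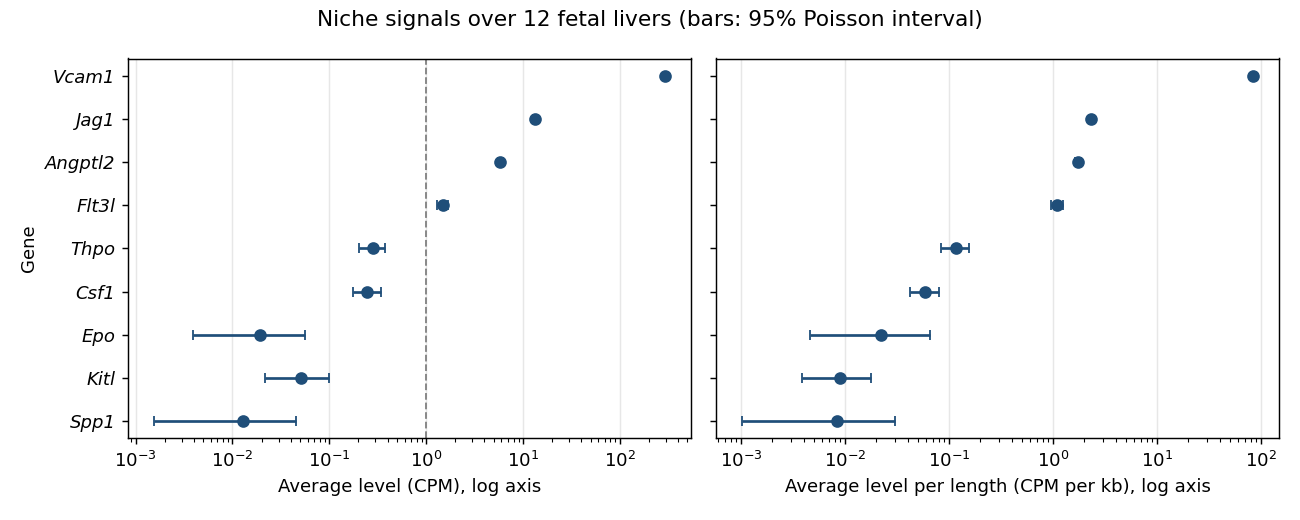
Average level of each niche signal over 12 livers in CPM (left) and in CPM per kilobase of the longest coding transcript (right), both on log axes. Points are levels, bars are 95% Poisson intervals of the read total and the dashed line is 1 CPM. The bars of Epo, Kitl and Spp1 overlap in the right panel, whereas Vcam1 lies far to the right at 83.6 CPM per kb.

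Receptors of these signals were listed as 16 genes, and 11 of them lay above 1 CPM (68.8%, against 33.1% of all rows), with a median of 18.5 CPM. For Kitl both ligand and receptor were near the lowest level. Kit, one of the surface markers by which the study identified its stem and progenitor cells, had 1 read over the 12 livers (0.0253 to 5.57). In reads, not divided by length, this interval overlapped that of Kitl (3.45 to 15.8). Per kilobase Kit was 0.135 times Kitl (0.0232 with median and 0.0349 with coding length). Csf1r, the receptor of Csf1, had 84 reads (67.0 to 104), or 0.113 CPM per kb against 0.059 for Csf1 itself. The ratio of 1.92 was 1.36 with median and 1.22 with coding length, lengths applied to these pairs after the data were seen. With these lengths Csf1r (0.229 and 0.181) lay within the counting interval of Csf1 (0.120 to 0.231 and 0.106 to 0.204).

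Epo and Epor showed the widest separation per kilobase of the longest transcript (5697 times) and of coding sequence (4443 times). With median length Itgav over Spp1 was wider, at 9227 times against 6933 for Epor over Epo. These ratios rest on 3 reads of Epo and 2 of Spp1. The median length was shorter than the longest coding sequence for Itgav (688 against 3132 bases) and for Epor (1210 against 1521 bases). Epor, carried by erythroid progenitors, had 35244 reads and a level of 127 CPM per kb, whereas Epo had 3 reads. Flt3, the receptor of Flt3l, stood at 2.65 CPM per kb, 2.42 times its ligand (1.52 with median and 1.80 with coding length). Pirb, a receptor reported to bind angiopoietin-like proteins and listed under its older symbol Lilrb3, had 16 reads (9.15 to 26.0), at 0.0265 CPM per kb against 1.75 for Angptl2.

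Among the Notch receptors, Notch2 was the highest at 12.4 CPM per kb, 5.30 times Jag1. Notch1 stood at 4.13 CPM per kb, 1.76 times Jag1 (3.34 with median length). Notch3, at 2.11 CPM per kb, was 0.899 times Jag1 (0.675 with coding length) but 1.65 times with median length. Its median length (4366.5 bases) was shorter than its longest coding sequence (6954 bases). Notch4, known from endothelium, had 2 reads. The integrin subunits that pair to bind Vcam1 were all detected: Itga4 at 64.1 CPM per kb, with 98649 reads the highest of the receptor list in CPM (626 CPM), Itgb1 at 11.04 and Itgb7 at 5.77. With median length Itgb7 (36.0) stood above Itgb1 (18.6), but the median length of Itgb7 (430.5 bases) was below its longest coding sequence (2418 bases). Itga4 was 0.766 times Vcam1 per kb of the longest transcript and 1.55 times per kb of coding sequence, so which of the 2 was higher depended on the length. The integrin subunits that bind Spp1 stood at 8.12 (Itgav), 5.54 (Itgb3) and 2.86 CPM per kb (Itga9), while Cd44, its other receptor, had 57 reads and 0.0647 CPM per kb. With median length Itgav stood at 83.3 and Itga9, at 10.4, above Itgb3 at 5.54. For Itgav and for Itga9 (1935 against 3108 bases) the median length was again below the longest coding sequence. Ligand and receptor can be made by different cells, and whole-liver RNA does not show which cell made either.

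**Figure D4:**
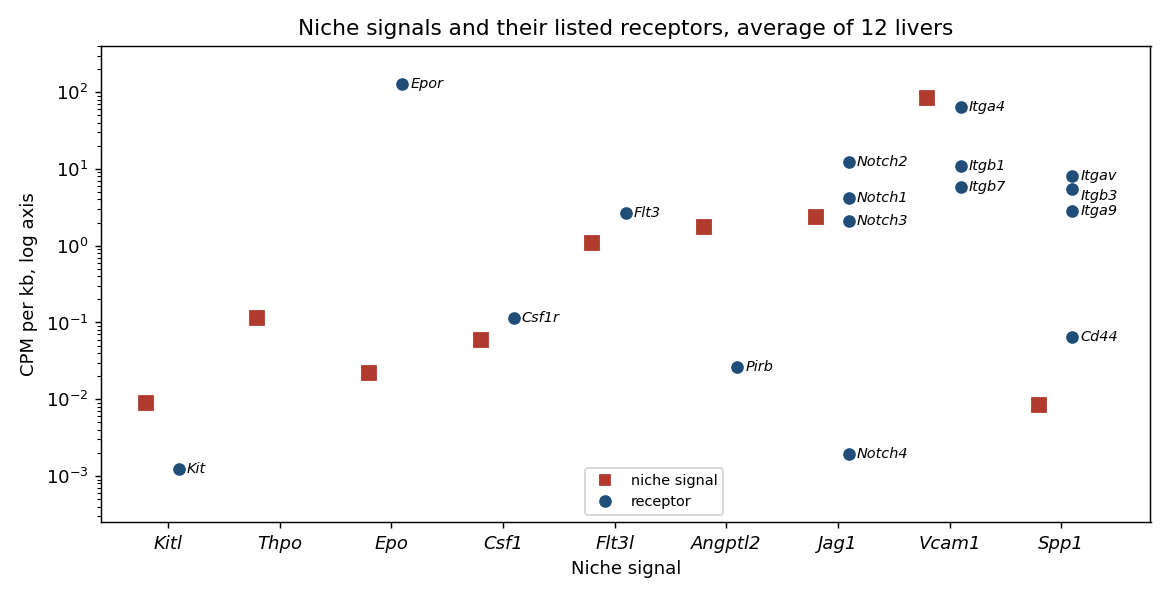
Level per kilobase (log axis) of each niche signal (squares) and of the receptors listed for it (circles), as averages of 12 livers. No receptor is shown for Thpo. Vcam1 and Itga4 are both high, Epor lies far above Epo, and Kitl and Kit are both near the foot.

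Beside relatives of the same family the members took different places. Of the angiopoietin-like genes compared with Angptl2 per kilobase, Angptl6 (14.1 CPM per kb) was 8.04 times as high (4.88 with median and 4.11 with coding length), and Angptl7 (0.877) and Angptl1 (0.216) stood below it. Angptl4 had no read. Of the Notch ligands, Dll4 (3.75 CPM per kb) was 1.60 times as high as Jag1, and Jag2 (0.558) and Dll3 (0.0412) stood below it with each length. Dll1 (1.74) was 0.743 times Jag1 (0.799 with coding length), but 1.24 times with median length. Vcam1 was 5.37 times Icam1, another immunoglobulin-type adhesion molecule, and 4.45 times Cdh2 (N-cadherin) per kilobase. Csf1 was scarce, and so were Csf3 with 6 reads, Csf2 with 1 read and Il34, the other ligand of Csf1r, with 1 read.

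Of 31 other niche signals, 16 lay above 1 CPM (51.6%, against 33.1% of all rows), with a median of 1.03 CPM. At most 10 reads were found for 7 of them (22.6%, against 49.8% of all rows). Igf2, a fetal growth factor that expands stem cells in culture, was the highest at 371 CPM. Tgfb1, a cytokine that restrains stem cell division, stood at 151 CPM, Cxcl12, the chemokine that retains stem cells, at 111 CPM and Ptn (pleiotrophin) at 43.3 CPM. Angptl4 and Il3 had no read, and Il34 and Csf2 had 1 each. Only Igf2 among these 31 was above Vcam1 in CPM, a scale not divided by length. Per kilobase of the longest transcript Igf2 (78.6) lay below Vcam1 (83.6). Per kilobase of coding sequence Igf2 (648) and Cxcl12 (310) lay above it (131), so this ranking depended on the length.

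**Figure D5:**
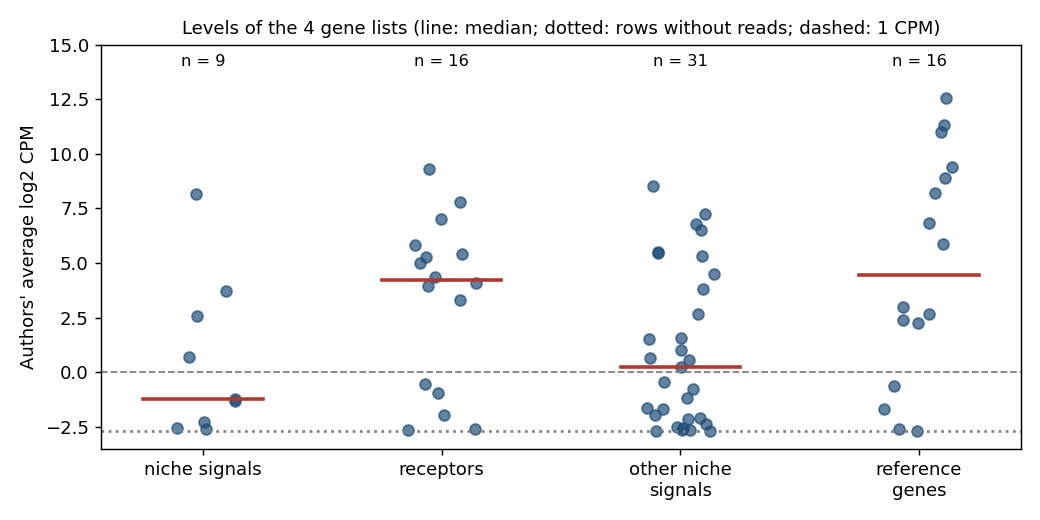
Authors' average log2 CPM of the 9 niche signals, 16 receptors, 31 other niche signals and 16 reference genes. Each point is a gene and each bar the median of its list, the dotted line marks rows without reads and the dashed line 1 CPM. Genes close to the dotted line occur in all 4 lists.

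Low totals need to be read with the table's other rows in view. Of 16 reference genes that most cells transcribe, a list drawn up after the table had been seen, 2 had at most 10 reads (Eif4a1 had none and Ppia 2) and 4 had fewer than 100, the others being Gusb with 25 and Tbp with 77 reads. Gapdh had 796 reads, against 406924 for Actb. Its level of 5.05 CPM, with 4.54 CPM for Ywhaz and 6.26 CPM for Rpl13a, lay near that of Angptl2 (5.84 CPM). Of the 16 reference genes, 12 lay above 1 CPM, the highest being Eef1a1 at 5951 CPM. Alas2, which erythroid cells need for heme, had 87 reads beside 109105 for Klf1. Of all rows, 24.7% (7579) carried the name of a sequenced clone in place of a gene name, and these rows held 3.68% of the summed level. Whether reads of Kitl, Epo, Spp1, Kit or any other gene named here were assigned to other rows was not tested. The totals of 2, 3 and 8 reads are therefore what the table lists for Spp1, Epo and Kitl, and cannot be read as the absence of these transcripts from the liver. The same limit holds for the levels, order and ratios of the other members, their receptors and their relatives.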

How the data were processed

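Whole livers of 6 control and 6 HFD fetuses were sequenced on an Illumina sequencer. Per the labels and the methods of the study, reads were trimmed with cutadapt 1.2.1, aligned to mm10 with Subread 1.3.6-p1, annotated with biomaRt and compared between diets with edgeR; the counting step and the normalization are not given in the sources used here. The authors deposited 1 table, with an average log2 CPM over all livers for each gene symbol. Its other columns hold the authors' own comparison of the diets (fold changes, p-values and adjusted p-values under 2 dispersions) and were not used, and the planned test of HFD against control was not run because it needs a value for every liver. The members and lists were chosen with earlier results of these data known. All 9 members and every listed gene were eligible to be named, the members in full.

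From the deposited log2 CPM the added count and the read totals were computed with Python 3.11.15, numpy 2.4.6, pandas 2.3.3 and scipy 1.17.1 from the lowest value and the step of rows with 1 read, which varied from 0.985 to 1.01 of its median between rows. Totals are in units of normalized libraries. On simulated data for 9000 genes in 12 libraries, every total of 1 to 20 reads was recovered and larger totals erred by at most 1.54%. Intervals are exact Poisson intervals at 95%. Positions came from RefSeq and transcript lengths from GENCODE M21, both on GRCm38. Older symbols were matched through RefSeq. Some genes of the planned lists are not reported here and were left out of every count. Hba-a1, Hbb-bt and Ren1 matched no row, and Nov no transcript model. Alternatives were other lengths, the added count, other sets of rows and leaving out members.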

Additional observations from a re-analysis of the deposited data

How the results depend on the processing

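Every value here is a description without a test. As deposited, with the added count left in, the median level of the 9 genes was 0.432 CPM, and with it taken off 0.28 CPM. Leaving out each gene in turn gave medians from 0.416 to 1.04 CPM, with the added count left in. For 5 of the 9 genes, those under 1 CPM, the level with the count left in lay outside the counting interval, which is computed without it. Median transcript length moved the level per kilobase outside its interval at the longest length for 6 genes, and coding length for 7. With either of them 5 of the 9 genes kept their place in the order, against 7 without division by length. Vcam1 stayed first and Spp1 last under all of these. The median percentile of the 9 was 35.7 among rows with reads, 58.9 among all rows and 43.5 for genes and rows above 1 CPM. Restricted to listed genes above 1 CPM, the median was 39.1 CPM for receptors (18.5 for all) and 18.2 CPM for other niche signals (1.03 for all). Other normalizations, filters on low counts, the DESeq2 Wald test, a block on the title's first number and leaving out livers were not run, since they need values of single livers. No paired analysis was possible because the column carries no replicate numbers. At this depth 3 reads in all correspond to 0.019 CPM. Applied to the receptor and family genes after the data were seen, the other lengths turned the direction against the member for Itga4, Notch3 and Dll1. For Notch3 and Dll1 only the median length did so. Median lengths were below the longest coding sequence for several genes, among them Notch3, Itgav, Itga9 and Itgb7.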

Other observations

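Markers of further cell types were read from the same average, as values with no comparison. Megakaryocytes, whose formation Thpo drives, were represented by Pf4 (150 CPM), Gp9 (44.1 CPM) and Itga2b (4.84 CPM). The biliary genes Krt19 (5.93 CPM), Epcam (5.50 CPM) and Sox9 (2.81 CPM) were detected above 1 CPM, and of the mesothelial genes Upk3b had 21.1 CPM, Wt1 0.984 CPM and Msln 3 reads. Genes of tissues outside the liver were near the lowest level for bone (Bglap with 8 and Ibsp with 7 reads) and kidney (Nphs1 with 19 reads, Umod with none). These totals cannot be read as absence of such tissue, since Hnf4a and Eif4a1 had no read either. The third acinar gene, Prss1, had 21 reads.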
